A study of Mus musculus with 17 samples.

Results

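Cholesterol synthesis, intracellular transport, storage and efflux were followed through 29 genes, chosen by name and matched by symbol to 29 of the 43430 mouse gene IDs counted. The genes fall into 6 roles: 7 enzymes of the mevalonate pathway, 11 enzymes that turn its product into squalene and then sterols, 4 genes of the SREBP2 control system, 3 genes that move cholesterol inside the cell, 1 esterifying enzyme, and 3 genes of cholesterol efflux and its transcriptional response.

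Cholesterol is made in the endoplasmic reticulum from acetyl-CoA by way of mevalonate, isoprenoid diphosphates, squalene and lanosterol. The transcription factor SREBP2, the product of Srebf2, switches the pathway on: when membranes are poor in sterol, the escort protein Scap carries it to the Golgi for cleavage, and when sterol is plentiful the Insig proteins hold Scap back. Excess sterol is esterified, or leads by way of the liver X receptors (LXR) to more of the exporters Abca1 and Abcg1. Alveolar type 2 (AT2) cells, the surfactant-secreting cells of the lung alveolus, put cholesterol into surfactant next to phospholipid.

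The RNA came from AT2 cells sorted by flow cytometry from C57BL/6J mice aged 2 months, in 2 experiments that share no library. In the first, naive mice received ISRIB, a small molecule that blunts the integrated stress response, or vehicle, labelled saline, and cells were taken 24 h later. This gave 4 ISRIB and 4 vehicle libraries, made with poly(A) selection from 3 ng of RNA. The second set 5 libraries of cells taken 14 days after bleomycin, a drug used to injure the lung, against 4 libraries of naive mice. These were total-RNA libraries from 0.35 ng. All 9 carry saline in the title and vehicle as the treatment. Doses are not stated in the labels. Levels are given as CPM, read counts scaled to the TMM-adjusted library size, and a gene is said to have risen or fallen only at an adjusted p under 0.05 (edgeR quasi-likelihood test, Benjamini-Hochberg over all genes tested). The labels do not say that libraries of a group came from separate mice, so p-values measure the spread between these libraries only.

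Total counts were 10493574 to 15727139 per poly(A) library and 3295257 to 6333166 per total-RNA library. AT2 markers were abundant throughout. The summed level of 11 of them, such as Sftpc and Abca3, was 225810 to 231266 CPM with vehicle and 223177 to 230809 CPM with ISRIB. It was 94416 to 103831 CPM in the naive libraries and 56555 to 105125 CPM after bleomycin, where bleomycin 1 (56555 CPM) and bleomycin 2 (67877 CPM) were lowest. The list of 17 macrophage and monocyte markers summed to 2086 to 4086 CPM in poly(A) and 288 to 879 CPM in total-RNA libraries, most of it Lyz1. Of its defining members, Ptprc stayed at or below 1.58 CPM and Adgre1, Marco and Siglecf at or below 0.21 CPM in every library. The 6 lymphocyte markers summed to at most 1.01 CPM.

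Per kilobase of exon (RPKM), Npc2, the soluble lysosomal protein that hands cholesterol on to Npc1, was the highest of the 29 genes in both control groups, at 847 RPKM with vehicle (n = 4) and 219 RPKM in naive libraries (n = 4). Soat1, which esterifies cholesterol for storage, followed at 87.5 and 88.4 RPKM. Hmgcs1 and Insig1 took the next 2 places in both groups: Hmgcs1 had 63.4 RPKM with vehicle and 47.5 RPKM in naive libraries, and Insig1 had 85.3 and 35.2 RPKM. The exporter Abcg1 was lowest in both, at 0.040 and 0.077 RPKM, and Abca1 had 3.75 and 4.77 RPKM. Most neighbours in this order could not be ranked, since the ranges of 20 of 28 neighbouring pairs overlapped with vehicle and 23 of 28 in naive libraries. The 2 kits were not compared with each other.

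**Figure D1:**
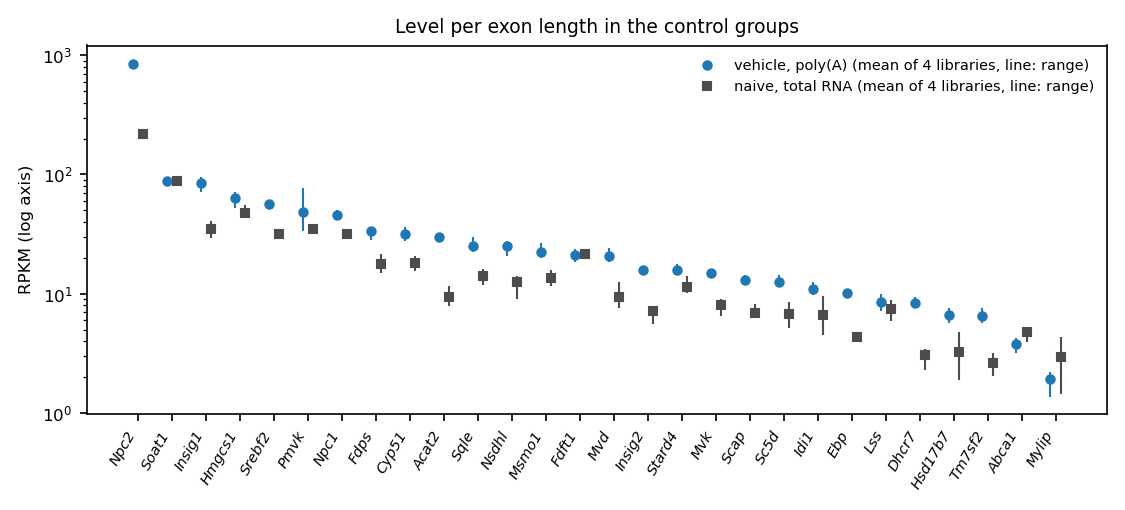
Level per kilobase of exon (RPKM, log axis) of 28 cholesterol genes in the vehicle (circles) and naive (squares) groups; the symbol is the mean of 4 libraries and the line their range. Npc2 stands highest in both groups, at 847 and 219 RPKM, and Abcg1, whose naive libraries include one at 0, is not drawn.

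After bleomycin, 4 of 18 synthesis enzymes, 2 of 4 control genes and 2 of 3 transport genes fell. Of 28 genes tested, these 8 were the enzymes Msmo1, Lss, Hmgcs1 and Fdft1, the regulators Insig1 and Srebf2, and the transport genes Stard4 and Npc1. Npc2 rose. The 8 that fell are 28.6% of the genes tested, and 9.31% of all 11223 genes tested in this comparison fell. In either direction it was 9 of 28 (32.1%), against 20.5% of all genes. Since the members were chosen with earlier results of these data known, these shares are a description only. The fold change was below 0 for 24 of 28, with a median of −0.29 on the log2 scale, while the median of all genes tested was 0.0026. The missing gene, Abcg1, was below the filter on low counts, with 7 counts in all over the 4 naive and 22 over the 5 bleomycin libraries.

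**Figure D2:**
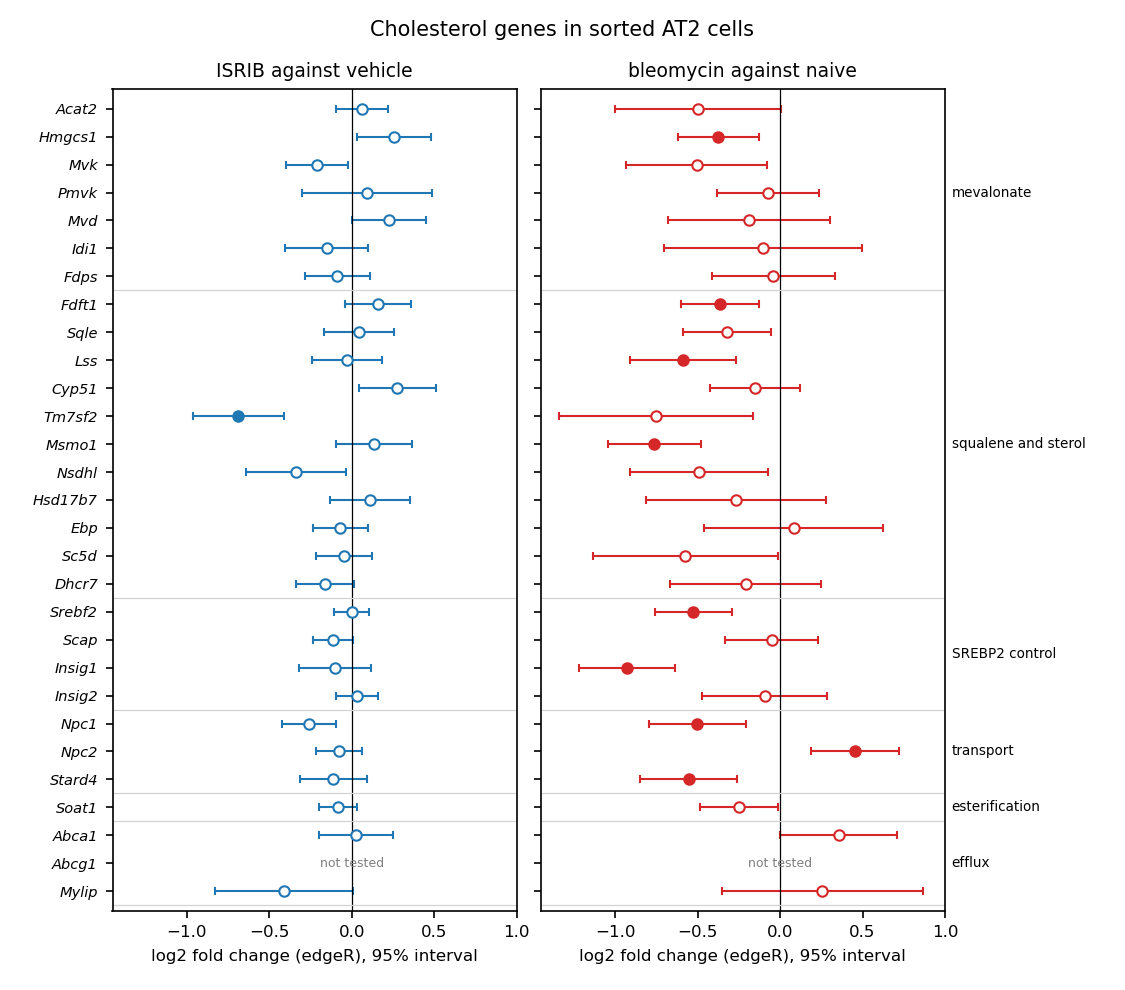
Log2 fold change of each cholesterol gene with its 95% interval, ISRIB against vehicle (left, 4 against 4 libraries) and bleomycin against naive (right, 5 against 4), ordered by role; filled symbols passed an adjusted p of 0.05. On the right, 8 filled symbols lie below 0 and 1 above, and on the left only Tm7sf2 is filled.

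Insig1, the sterol-sensitive anchor of Scap and itself a target of SREBP2 (chromosome 5, 28071363 to 28078662, plus strand), fell the most. It had 113, 125, 90.1 and 107 CPM in the naive libraries and 62.7, 46.6, 70.6, 52.0 and 54.0 CPM after bleomycin. Every bleomycin library lay below every naive one, and the log2 fold change was −0.93 (SE 0.14, adjusted p = 1.20e-04). The related Insig2, which is not under the same sterol feedback, had 24.9 ± 3.7 CPM (SD, n = 4) in naive and 23.4 ± 4.1 CPM (SD, n = 5) in bleomycin libraries. Its log2 fold change was −0.09, with a 95% interval from −0.47 to 0.29 and an adjusted p of 0.764. The difference between Insig1 and Insig2 was not tested.

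Srebf2 (chromosome 15, 82147181 to 82205379, plus strand) encodes SREBP2 itself. Its levels were 223, 239.7, 223 and 229 CPM in the naive libraries and 134, 153, 177, 154 and 176 CPM after bleomycin. The groups did not overlap, and Srebf2 fell by 0.53 on the log2 scale (SE 0.11, adjusted p = 0.0025). Scap, the escort, did not pass: 51.4 ± 6.2 CPM (SD, n = 4) against 49.8 ± 5.4 CPM (SD, n = 5), with a 95% interval of the log2 fold change from −0.33 to 0.23 (adjusted p = 0.830). Thus 2 of the 4 control genes fell, and the other two did not pass the test.

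**Figure D3:**
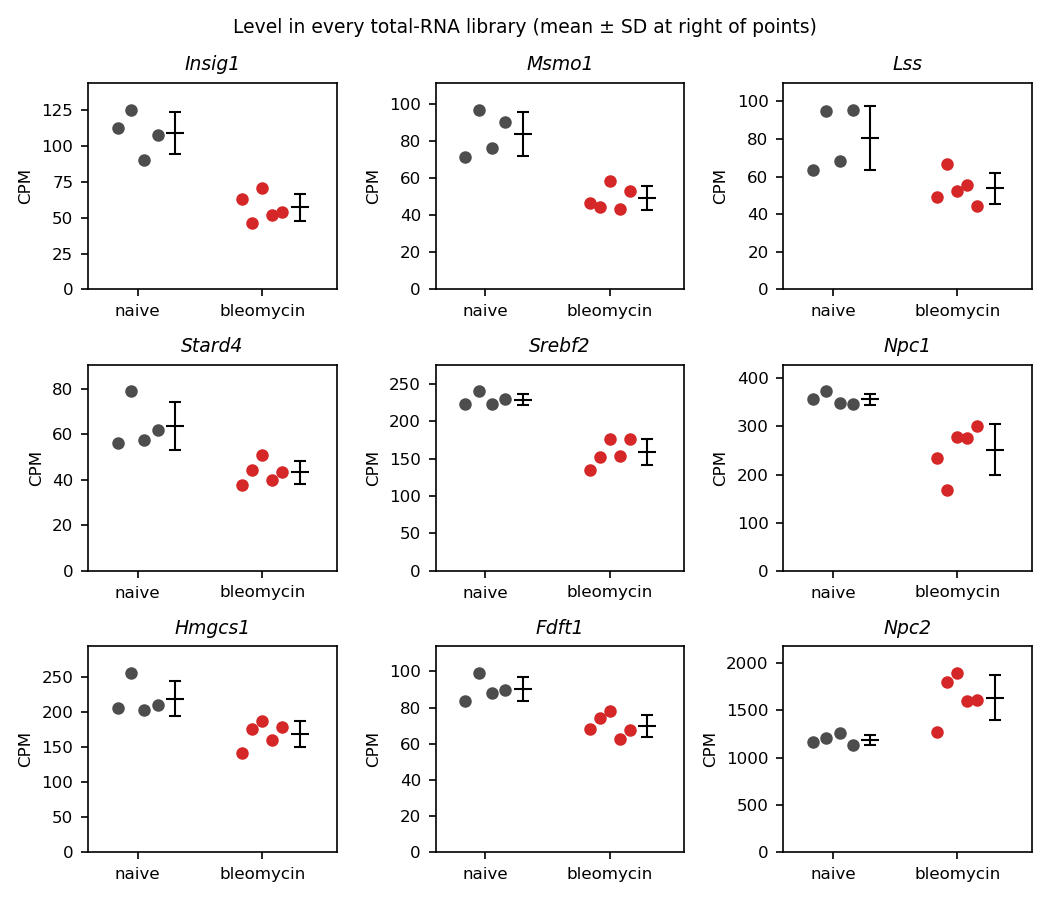
CPM of the 9 genes that passed the test, in each naive (4) and bleomycin (5) library; points are libraries, and the bar at their right is the mean ± SD. Insig1 lies at 90.1 CPM or more in all naive libraries and at 70.6 CPM or less in all bleomycin libraries, and Lss is the only one of the 9 whose groups overlap.

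Among the 7 mevalonate enzymes, all 7 fold changes were below 0 and 1 gene passed. Hmgcs1 (chromosome 13, 119690379 to 119708260, plus strand) makes HMG-CoA, the substrate of the rate-limiting step. Its model shares 557 exon bases with Gm48342 on the opposite strand. Hmgcs1 was called, as follows. It had 205, 255, 203 and 209.8 CPM in the naive libraries and 141, 175, 187, 160.3 and 179 CPM after bleomycin. All 5 bleomycin libraries were below the lowest naive one, and naive 2 stood above the other naive libraries. The log2 fold change was −0.37 (SE 0.12, adjusted p = 0.0296). The call was lost without naive 1 (−0.40, adjusted p = 0.0502), naive 2 (−0.29, adjusted p = 0.136) or naive 4 (−0.40, adjusted p = 0.0616), and with no filter on low counts (−0.35, adjusted p = 0.0620). The other 6, not called, ran from −0.51 for Mvk, which phosphorylates mevalonate (21.4 ± 2.9 against 14.9 ± 3.1 CPM, SD, n = 4 and 5, adjusted p = 0.0861), to −0.04 for Fdps, the farnesyl diphosphate synthase (adjusted p = 0.896). Acat2, the thiolase at the entry of the pathway, had −0.50 (adjusted p = 0.156), and Mvd, Idi1 and Pmvk had −0.19, −0.10 and −0.08.

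Of the 11 squalene and sterol enzymes, 3 fell and 10 of 11 fold changes were below 0, with a median of −0.36. Msmo1, an oxidase that strips methyl groups from the sterol ring (chromosome 8, 64718139 to 64733792, minus strand), had 71.4, 97.0, 76.3 and 90.6 CPM in the naive libraries and 46.6, 44.4, 58.8, 43.6 and 53.4 CPM after bleomycin. The highest bleomycin library stood below the lowest naive one, and Msmo1 fell by 0.76 on the log2 scale (SE 0.13, adjusted p = 5.71e-04).

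Lss, the cyclase that closes squalene epoxide into lanosterol (chromosome 10, 76531588 to 76557138, plus strand), had 63.4, 94.9, 68.2 and 95.4 CPM in naive libraries and 49.2, 66.6, 52.3, 55.7 and 44.5 CPM after bleomycin. Its groups overlapped, because bleomycin 2 exceeded naive 1. The log2 fold change of Lss was −0.59 (SE 0.15, adjusted p = 0.0101), and the call was lost without naive 2 (−0.50, adjusted p = 0.0554) or naive 4 (−0.50, adjusted p = 0.0558), the libraries where Lss was highest. An exon stretch of 381 bases lies opposite the gene model 4930483K19Rik.

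Fdft1, squalene synthase (chromosome 14, 63145150 to 63179578, minus strand), is the step that commits the pathway to sterols. It had 83.9, 99.1, 88.3 and 89.7 CPM in naive and 68.2, 74.2, 77.9, 62.5 and 67.5 CPM in bleomycin libraries. The groups did not overlap (log2 fold change −0.36, SE 0.11, adjusted p = 0.0289). The call did not hold without naive 2 (−0.31, adjusted p = 0.113), naive 3 (−0.38, adjusted p = 0.0623), naive 4 (−0.37, adjusted p = 0.0715) or bleomycin 5 (−0.34, adjusted p = 0.0627), or with no filter on low counts (−0.34, adjusted p = 0.108). Fdft1 shares 774 exon bases with Ctsb on the opposite strand, and Ctsb rose (log2 fold change 0.75, adjusted p = 2.96e-04). No source used here says whether counting used the strand.

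Tm7sf2, a sterol reductase that acts after the demethylation of lanosterol, had 12.7, 10.7, 9.01 and 14.0 CPM in the naive libraries and 6.88, 4.33, 8.98, 7.73 and 6.49 CPM after bleomycin. The groups did not overlap, though naive 3 and bleomycin 3 were next to each other, and the log2 fold change of −0.75 (SE 0.28) missed the threshold at an adjusted p of 0.0638. DESeq2 gave −0.75 as well, with an adjusted p of 0.0493. Nsdhl, a dehydrogenase of sterol demethylation, had −0.49 (adjusted p = 0.0886), and the late desaturase Sc5d had −0.57 (adjusted p = 0.140). Sqle, squalene epoxidase, had −0.32 (77.3 ± 9.3 against 61.9 ± 7.0 CPM, SD, n = 4 and 5, adjusted p = 0.0783). Without bleomycin 4, Sqle (−0.38, adjusted p = 0.0305) and Nsdhl (−0.65, adjusted p = 0.0130) passed. Hsd17b7, Dhcr7 and Cyp51 lay between −0.27 and −0.15, and Ebp, the sterol isomerase, was the only enzyme above 0, at 0.08 (adjusted p = 0.854).

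The 18 enzymes together summed to 888, 1125, 881 and 1003 CPM in the naive libraries. After bleomycin they summed to 652, 756, 841, 814 and 777 CPM. The sums of the 2 groups did not overlap, the gap lying between naive 3 and bleomycin 3. For the 7 mevalonate enzymes alone the sums overlapped, with 396 CPM in naive 1 and 409 CPM in bleomycin 3. For the 11 squalene and sterol enzymes they did not: the lowest naive sum was 474 CPM and the highest bleomycin sum 431 CPM. The enzymes shared high libraries: naive 2 held the highest naive value for 13 of 18 enzymes, while it was highest for 24.4% of all genes tested. Among the bleomycin libraries, bleomycin 1 had the lowest and bleomycin 3 the highest sum of both the enzymes and the AT2 markers, and the part of the latter in the former was not tested.

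**Figure D4:**
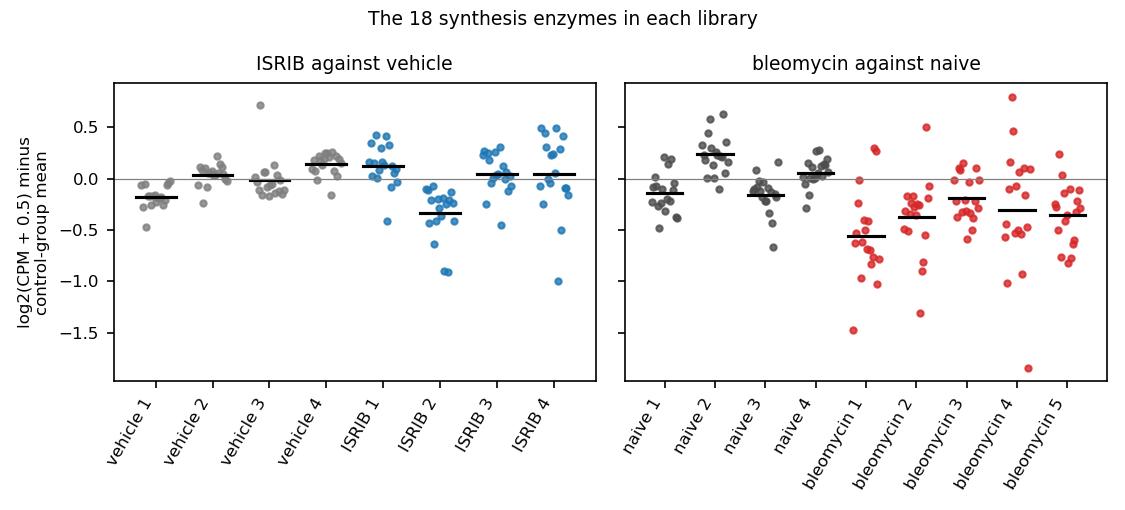
Each of the 18 synthesis enzymes in each library, as log2(CPM + 0.5) minus the mean of the control group; points are genes and the bar is their mean. ISRIB 2 lies below the other ISRIB libraries, at a mean of −0.33, and all 5 bleomycin means lie below those of all 4 naive libraries.

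Transport genes split. Npc1, the lysosomal membrane protein that exports cholesterol (chromosome 18, 12189692 to 12236400, minus strand), had 357, 372, 349 and 347 CPM in naive libraries and 234, 169, 279, 276 and 301 CPM after bleomycin. No bleomycin library reached the naive range, and bleomycin 2 was lowest. Npc1 fell by 0.50 on the log2 scale (SE 0.14, adjusted p = 0.0160). With bleomycin 1 and bleomycin 2 both left out it was −0.32 (adjusted p = 0.0215), and without naive 2 it was −0.48 (adjusted p = 0.0504). The model of Npc1 shares 601 exon bases with Rmc1 and Gm15956 on the opposite strand. Rmc1 had a log2 fold change of −0.05 (adjusted p = 0.826).

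Stard4, a cytosolic sterol carrier and SREBP2 target (chromosome 18, 33199355 to 33213862, minus strand), had 56.0, 78.8, 57.6 and 61.7 CPM in naive libraries and 37.8, 44.2, 51.1, 39.9 and 43.4 CPM after bleomycin. Its groups did not overlap, and it fell by 0.55 on the log2 scale (SE 0.14, adjusted p = 0.00877). The adjusted p was 0.0586 without naive 2, the highest library (log2 fold change −0.43).

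Npc2, the soluble partner of Npc1 in the lysosome (chromosome 12, 84754562 to 84773152, minus strand), went the other way. It had 1168, 1202, 1256 and 1128 CPM in the naive libraries and 1267, 1795, 1892, 1592 and 1607 CPM after bleomycin. All 5 bleomycin libraries were above the highest naive one, but bleomycin 1 only just. The log2 fold change was 0.46 (SE 0.13, adjusted p = 0.0154), and 0.43 (adjusted p = 0.0653) without naive 4. With bleomycin 1 and bleomycin 2 left out it was 0.52 (adjusted p = 0.00109).

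Among the genes of storage, efflux and its transcriptional response, none of those tested passed. Soat1 had 844, 871, 863 and 886 CPM in naive libraries and 721, 611, 719, 835 and 759 CPM after bleomycin. Its groups did not overlap, yet its log2 fold change of −0.25 had an adjusted p of 0.131. Abca1, the LXR-induced exporter, had 49.4 ± 6.3 CPM (SD, n = 4) against 63.0 ± 15.01 CPM (SD, n = 5), a log2 fold change of 0.35 with a 95% interval from −0.00078 to 0.71 (adjusted p = 0.151). Bleomycin 4, at 39.9 CPM, lay below all other libraries for Abca1, and without it the change was 0.48 (adjusted p = 0.0181). Mylip, an LXR-induced ubiquitin ligase that sends lipoprotein receptors to degradation, had 9.51 ± 3.78 against 11.5 ± 2.5 CPM (SD, n = 4 and 5, adjusted p = 0.583). In all, groups did not overlap with lower values after bleomycin for 9 of 28 genes, against 9.35% of all genes tested, and with higher values for 1 of 28, against 10.4%. In either direction this was 10 of 28, against 19.7%.

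Markers of other states moved in the same libraries. Of 6 alveolar type 1 markers, 4 rose (summed 963 to 1192 CPM in naive and 1404 to 1771 CPM in bleomycin libraries). Of 8 fibroblast markers, 3 were tested and all 3 rose. The 8 summed to 3.87 to 10.1 CPM in naive and 17.5 to 115 CPM in bleomycin libraries, highest in bleomycin 2, while Lum was 0 in every library. Of 11 AT2 markers, Sftpd and Napsa rose and Etv5 fell. The fold change was below 0 for 9 of these 11, with a median of −0.16 on the log2 scale. Of 6 endothelial markers, 5 were tested and 2 rose, and the 6 summed to 19.4 to 27.3 CPM in naive and 20.4 to 75.1 CPM in bleomycin libraries. Of 5 airway markers, 3 were tested and Foxj1 rose. The 17 macrophage and monocyte markers summed to 712 to 879 CPM in naive and 288 to 764 CPM in bleomycin libraries. Of them 7 were tested, Cd14 rose and Lyz1 fell. Among all genes tested, 11.2% rose and 9.31% fell. With bleomycin 1 and bleomycin 2 left out, 8 of the 9 genes were still called, Hmgcs1 being the exception (−0.31, adjusted p = 0.0511), and Insig1, Msmo1 and Srebf2 had −0.88, −0.68 and −0.43. The share of all genes called in that setting is not given. The part of the other markers in these differences was not tested, and in bulk RNA fewer cells of a type and less RNA per cell cannot be told apart.

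Sequences upstream of the genes that moved are shown because several of them are known SREBP2 targets. SREBP2 binds sterol regulatory elements, commonly next to CCAAT boxes bound by the factor NF-Y. RefSeq windows from 250 bases before to 50 bases after the transcription start (GRCm38.p6) were on hand for 23 of the 29 genes, and not for Fdft1, Sqle, Fdps, Npc1, Stard4 and Abcg1. The stretches printed run 5′ to 3′ on the strand of the gene and stop short of annotated exons. For Msmo1 and Tm7sf2 no stretch is printed, since the longest run before the start clear of exons was 36 and 0 bases. Capitals mark CCAAT or its reverse complement ATTGG, and in Hmgcs1 also the sterol regulatory element core.
Insig1, chr5:28071162-28071362, plus strand: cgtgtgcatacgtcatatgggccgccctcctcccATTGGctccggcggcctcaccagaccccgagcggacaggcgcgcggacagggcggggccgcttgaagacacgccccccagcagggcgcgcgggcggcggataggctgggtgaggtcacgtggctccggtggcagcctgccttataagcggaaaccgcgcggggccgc
Srebf2, chr15:82147019-82147180, plus strand: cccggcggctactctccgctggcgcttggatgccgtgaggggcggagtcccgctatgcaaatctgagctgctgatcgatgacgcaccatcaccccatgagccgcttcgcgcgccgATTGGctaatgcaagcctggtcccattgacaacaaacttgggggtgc
Hmgcs1, chr13:119690101-119690350, plus strand: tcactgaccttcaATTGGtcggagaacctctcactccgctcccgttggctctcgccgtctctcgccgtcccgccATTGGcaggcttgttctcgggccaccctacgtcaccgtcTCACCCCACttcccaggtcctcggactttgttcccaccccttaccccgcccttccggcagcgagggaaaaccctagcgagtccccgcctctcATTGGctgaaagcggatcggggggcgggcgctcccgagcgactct
Lss, chr10:76531355-76531587, plus strand: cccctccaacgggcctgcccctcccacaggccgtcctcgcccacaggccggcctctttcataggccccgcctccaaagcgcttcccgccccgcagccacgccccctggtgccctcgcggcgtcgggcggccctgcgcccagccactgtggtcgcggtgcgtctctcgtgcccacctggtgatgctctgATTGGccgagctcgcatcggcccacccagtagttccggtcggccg
Npc2, chr12:84773153-84773250, minus strand: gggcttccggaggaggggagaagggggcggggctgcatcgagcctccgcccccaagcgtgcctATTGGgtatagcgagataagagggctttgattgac
The core searched for was TCACNCCAC on either strand. It was present in the window of Hmgcs1, 137 bases before the start, and in that of no other of the 23 genes, while 1.44% of all 27025 genes in the table held it. The CCAAT box was found for 20 of 23 genes, for 14 of the 15 enzymes and for all 5 genes on hand that fell, against 41.1% of all genes. Hmgcs1 held 3 of them, and Npc2, which rose, held 1 too. The LXR direct repeat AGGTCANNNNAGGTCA was found for none of the 23 genes and for 0.0148% of all genes. These exact letters were in only 5 of 32851 windows, too few for their absence from 23 genes to mean anything. A match is a description of the letters and does not show binding. Only exact letters were searched for, so a missing match does not show that an element is absent. The 2 motifs printed in capitals do not overlap.

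With ISRIB, the sterol reductase Tm7sf2 fell and no cholesterol gene rose. That is 1 of 28 genes tested (3.57%), against 2.2% of all 12054 genes tested in this comparison, of which 1.1% fell and 1.1% rose. The fold change was below 0 for 17 of 28, with a median of −0.06 against −0.00014 over all genes tested. By the unadjusted p, 7 of the 28 were under 0.05, and so were 1934 of all 12054.

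Tm7sf2 (chromosome 19, 6062821 to 6068373, minus strand) had 24.99, 33.5, 31.4 and 25.5 CPM with vehicle and 21.3, 15.1, 20.8 and 14.1 CPM with ISRIB. Every ISRIB library was below every vehicle library, and Tm7sf2 fell by 0.69 on the log2 scale (SE 0.13, adjusted p = 0.0129). ISRIB 2 and ISRIB 4 were lowest, and these libraries also stood apart in marker sums. Their macrophage and monocyte list summed to 3693 and 4086 CPM, against 2086 to 2456 CPM with vehicle, and their airway list to 2826 and 2036 CPM, against 3335 to 3736 CPM. With both left out, Tm7sf2 had −0.45 (adjusted p = 0.0844). Without vehicle 2, its highest library, the change was −0.61 with an adjusted p of 0.0517. The model of Tm7sf2 shares 532 exon bases with Vps51 on the same strand, and Vps51 had a log2 fold change of −0.07 (adjusted p = 0.767) with ISRIB and −0.09 (adjusted p = 0.819) after bleomycin. Lbr, which encodes an enzyme with the same sterol reductase activity, had 74.6 ± 5.1 CPM with vehicle and 74.8 ± 2.6 CPM with ISRIB (SD, n = 4 each, adjusted p = 0.971). After bleomycin, Lbr stood at −0.33 (adjusted p = 0.0599), and at −0.36 (adjusted p = 0.0465) without bleomycin 2.

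**Figure D5:**
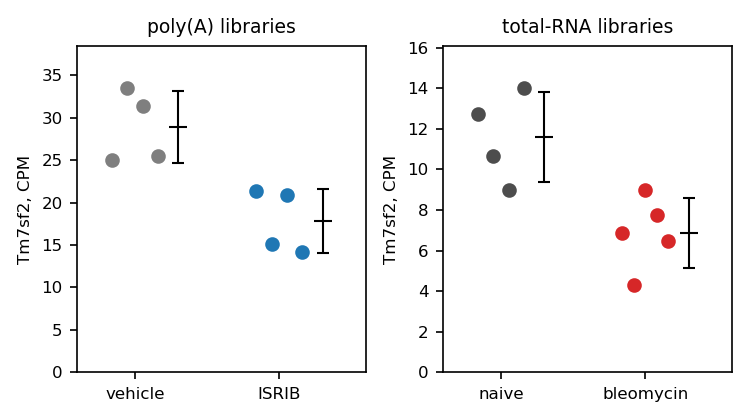
CPM of Tm7sf2 in each poly(A) library (left, vehicle and ISRIB) and each total-RNA library (right, naive and bleomycin); points are libraries and the bar is the mean ± SD. ISRIB libraries reach at most 21.3 CPM and vehicle libraries at least 24.99 CPM, while bleomycin and naive libraries are separated by 8.98 and 9.01 CPM.

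The mevalonate enzymes split, 4 above and 3 below 0, and none passed. Hmgcs1 had 239, 313, 283 and 329 CPM with vehicle and 368, 268, 348 and 408 CPM with ISRIB. The groups overlapped through ISRIB 2, and the log2 fold change was 0.26 (SE 0.11, adjusted p = 0.239). Without ISRIB 2 it was 0.36 (adjusted p = 0.0435). Mvd, which makes isopentenyl diphosphate, had 0.23 (adjusted p = 0.301), Mvk had −0.21 (adjusted p = 0.250), and Pmvk, with 131 CPM in vehicle 3 and 57.3 to 78.4 CPM in the other vehicle libraries, had 0.09 (adjusted p = 0.868).

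Beside Tm7sf2, the squalene and sterol enzymes ran from −0.34 for Nsdhl (71.2 ± 8.3 against 56.3 ± 15.5 CPM, SD, n = 4 each, adjusted p = 0.249) to 0.28 for Cyp51, the lanosterol demethylase (140.1 ± 16.4 against 169.7 ± 32.7 CPM, adjusted p = 0.227). Cyp51 passed without ISRIB 2 (0.41, adjusted p = 0.0140). Of the others, Fdft1 had 0.16, Msmo1 0.13, Hsd17b7 0.11 and Sqle 0.04, and Dhcr7 had −0.16, Ebp −0.07, Sc5d −0.05 and Lss −0.03.

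ISRIB 2 was low across the pathway. It held the lowest ISRIB value for 17 of 18 enzymes, and for 24.8% of all genes tested. The enzymes summed to 1805, 1293, 1707 and 1801 CPM in the ISRIB libraries, against 1359, 1616, 1560.2 and 1759 CPM with vehicle. Without ISRIB 2, Tm7sf2 was called lower and Hmgcs1 and Cyp51 higher, and the median over the 28 genes was 0.0080. The share of all genes called with libraries left out is not given, so such calls describe single genes only. ISRIB 2 also had the lowest AT2 marker sum of the 8 libraries (223177 CPM). Next came ISRIB 4 (225441 CPM), whose enzymes summed to 1801 CPM, and then vehicle 1 (225810 CPM), with 1359 CPM. Vehicle 4 had the highest AT2 marker sum (231266 CPM), and its enzymes summed to 1759 CPM, the most among the vehicle libraries. With ISRIB 2 and ISRIB 4 both left out, Cyp51 was the 1 gene called (0.37, adjusted p = 0.0387) and the median was 0.047. Of the marker lists, Etv5 (adjusted p = 0.00817) and Chil3 (at most 1.55 CPM) fell with ISRIB, and the part of these markers in the enzyme values was not tested. The vehicle group had a spread of its own, with vehicle 1 lowest for 13 of 18 enzymes (25.2% of all genes) and vehicle 4 highest for 13 of 18 (26.6%).

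None of the control genes passed. Srebf2 had 392, 423, 414 and 397 CPM with vehicle and 427, 386, 416 and 396 CPM with ISRIB. The 2 groups overlapped over most of their range, and the log2 fold change was −0.00067, with a 95% interval from −0.11 to 0.11 (adjusted p = 0.997). Scap had 91.9, 106.5, 96.4 and 93.15 CPM with vehicle and 91.3, 87.3, 90.8 and 89.4 CPM with ISRIB. The groups did not overlap, but vehicle 1 and ISRIB 1 nearly met, and the log2 fold change of −0.11 had an adjusted p of 0.352. Groups with lower values that did not overlap were found for 2 of 28 genes, Tm7sf2 and Scap, against 4.39% of all genes tested. No gene of the 28 had higher values without overlap, against 4.26% of all, and in either direction the share of all genes was 8.65%. Insig1 had −0.10 (adjusted p = 0.696) and Insig2 had 0.03 (adjusted p = 0.861).

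Npc1 had 503, 495, 568 and 491 CPM with vehicle and 498, 388, 449.9 and 385 CPM with ISRIB. ISRIB 2 and ISRIB 4 were lowest, only ISRIB 1 reached the vehicle range, and the log2 fold change of −0.26 (SE 0.08) had an adjusted p of 0.0925. With ISRIB 2 and ISRIB 4 left out it was −0.12 (adjusted p = 0.492), without ISRIB 1 it was −0.33 (adjusted p = 0.0212), and with DESeq2 in place of edgeR it was −0.26 (adjusted p = 0.0350). Npc2 had −0.08 (4608 ± 176 against 4367 ± 437 CPM, SD, n = 4 each, adjusted p = 0.618), Stard4 −0.11 (adjusted p = 0.634) and Soat1 −0.08 (adjusted p = 0.483). Abca1 had 0.02 (adjusted p = 0.947), Mylip −0.41 (6.21 ± 1.26 against 4.67 ± 1.17 CPM, adjusted p = 0.319), and Abcg1, at 0.29 ± 0.15 and 0.37 ± 0.31 CPM, was below the filter. Neither Abca1 nor Mylip passed, and Abcg1 was not tested.

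A further 45 genes of sterol metabolism, among them receptors, LXR subunits, SREBP processing and oxysterol enzymes, gave 38 tested genes in each experiment. After bleomycin 4 fell, against 9.31% of all genes, and 1 rose, with a median of −0.09. Together these 5 of 38 are a smaller share than the 20.5% called over all genes, and the genes that passed are named as values only. Cd36, a scavenger receptor for lipids, had 998 to 1178 CPM in naive and 411 to 916 CPM in bleomycin libraries and fell by 0.77 on the log2 scale (adjusted p = 0.00649). It was called under all 18 settings tried. Vldlr, a lipoprotein receptor, fell by 0.79 (adjusted p = 0.0104), and had −0.62 (adjusted p = 0.0601) without naive 2. Scarb1, the receptor for high-density lipoprotein, fell by 0.55 (adjusted p = 0.0458). Lpcat3, an LXR target that remodels phospholipid, rose from 33.0 ± 2.8 to 43.7 ± 3.7 CPM (SD, n = 4 and 5, log2 fold change 0.41, adjusted p = 0.0423). Neither of these 2 calls was firm. Scarb1 passed in 8 of 18 settings, with adjusted p up to 0.154 (without naive 4), and Lpcat3 in 6 of 18, with adjusted p up to 0.142 (without naive 4).

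Erlin1, an endoplasmic reticulum protein that binds cholesterol and restrains SREBP activation, was called in both experiments. It rose with ISRIB, from 39.1 to 46.9 CPM with vehicle to 50.1 to 72.3 CPM, without overlap (log2 fold change 0.53, adjusted p = 0.00744). It fell after bleomycin, from 33.7 to 39.2 CPM to 17.7 to 35.9 CPM, with overlap (−0.56, adjusted p = 0.0415). The call with ISRIB held under all 16 settings tried, while the one after bleomycin held in 9 of 18 and was lost, for example, without naive 1 (−0.53, adjusted p = 0.108). With ISRIB it was the only one of the 38 genes called by the edgeR analysis reported, and the median was 0.0050. Scarb1 had −0.37 there (adjusted p = 0.106). Its adjusted p was 0.0493 with DESeq2, 0.0369 without ISRIB 3 (−0.48) and 0.565 without ISRIB 2 and ISRIB 4 (−0.13). With no filter on low counts the adjusted p of Scarb1 was 3.83e-04, though its log2 fold change was again −0.37.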

How the data were processed

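The deposited values were raw read counts per gene, whole numbers in 2 tables of 43430 Ensembl gene IDs, 1 for each library kit. Per the submitters' processing notes, the authors' tools were bcl2fastq 2.19.1, FastQC, Trimmomatic 0.36, STAR 2.6.0 and HTSeq 0.11.2, on the genome build mm10. The annotation release and the strand mode were not given in the sources used here, so it is not known how reads of overlapping genes were assigned. Symbols, positions and exon lengths came from GENCODE M21 (GRCm38), in which 42462 IDs had a symbol.

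Each table was tested as a whole with edgeR 4.0.16 (R 4.3.3). Genes were kept by filterByExpr (minimum count 10, minimum total count 15), normalized by TMM and put to the two-sided quasi-likelihood test, with Benjamini-Hochberg adjustment over all genes kept and a threshold of 0.05. RPKM values are CPM divided by the kilobases of exon. Intervals are 95%. The poly(A) and total-RNA libraries entered no common model. The scripts were tested on simulated data. Alternatives were other scaling factors, DESeq2 1.42.0, limma 3.58.1 (voom), no filter on low counts, a replicate block, each library left out in turn, and, for bleomycin, a table without ribosomal-RNA-like and mitochondrial genes. Alternatives without bleomycin 1 and bleomycin 2, for their low AT2 marker sums, and without ISRIB 2 and ISRIB 4, for their macrophage and airway marker sums, were added after the data were seen, and the further sterol genes named were run under all alternatives too. All replicates differed by more than counting noise. Genes that passed the test or whose groups did not overlap, and Srebf2, are given library by library, other members by range or with values, and of the further sterol genes those called are named, with Lbr added afterwards for its shared reaction. The members and all lists were chosen with earlier results of these data known. Some genes of the pathway are not reported here.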

Additional observations from a re-analysis of the deposited data

Results flagged for a closer look

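For each of the 29 genes in each group, the highest and lowest library were set against the rest by Dixon's criterion. Of 116 groups, 8 had a library standing apart, where chance gives about 1 in 20 groups, or 5.8. ISRIB 2 was low for Fdft1, at 76.96 CPM against 103.6 to 108.7 CPM in the other ISRIB libraries, and for Idi1, at 24.6 CPM against 37.4 to 38.5 CPM. Naive 2 was high for Hmgcs1, at 255 CPM against 203 to 209.8 CPM, and for Scap, at 60.7 CPM against 47.6 to 48.6 CPM. Insig2 was high in ISRIB 4, at 59.2 CPM against 54.8 to 55.5 CPM, and low in naive 4, at 19.4 CPM against 26.5 to 26.8 CPM. Ebp was high in ISRIB 1, at 24.3 CPM against 21.5 to 21.9 CPM. Npc1 was high in vehicle 3, at 568 CPM against 491 to 503 CPM.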

How the results depend on the processing

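With ISRIB, 1 gene was called in the analysis reported and under both other scaling factors and limma-voom. DESeq2 called 2, the absence of a low-count filter 5 (Tm7sf2, Hmgcs1, Cyp51, Nsdhl and Npc1), and leaving out single libraries 0 to 3. After bleomycin, 9 genes were called, 8 to 10 under the alternatives that kept all libraries, and 4 (without naive 2) to 12 (without bleomycin 4) with single libraries left out, with 5 without naive 4. Without a filter, Sc5d (−0.55) was called and Hmgcs1 and Fdft1 were not. Insig1, Msmo1 and Srebf2 were called under all 18 settings. For the alternatives, here and above, the share of all genes called in the same setting is not given. Their counts therefore describe single genes and not the cholesterol genes as a group. Changes of sign were limited to uncalled genes. With upper-quartile factors, Lbr had −0.0016 with ISRIB. With ISRIB 2 and 4 left out, 1 gene was called, Cyp51 in place of Tm7sf2, and Fdps had 0.041, Lss 0.084, Sc5d 0.063, Srebf2 0.054, Insig1 0.077, Npc2 0.040 and Stard4 0.033. With bleomycin 1 and 2 left out, Pmvk had 0.097, Idi1 0.15, Fdps 0.15, Ebp −0.17, Scap 0.056 and Insig2 0.026. Over single libraries left out, the log2 changes ran, with ISRIB, from −0.051 to 0.12 for Abca1, −0.16 to 0.010 for Fdps, −0.10 to 0.072 for Lss, −0.049 to 0.41 for Pmvk, −0.097 to 0.020 for Sc5d, −0.021 to 0.14 for Sqle, −0.023 to 0.023 for Srebf2 and −0.031 to 0.050 for Lbr, and after bleomycin from −0.050 to 0.19 for Ebp, −0.18 to 0.076 for Fdps, −0.45 to 0.0026 for Hsd17b7, −0.38 to 0.15 for Idi1, −0.16 to 0.023 for Pmvk and −0.088 to 0.044 for Scap. The cause of these shifts was not tested.

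Replicate numbers did not pair the libraries: correlations of the deviations of same-numbered libraries were −0.11 to 0.08 and −0.04 to 0.05. With a replicate block, which drops bleomycin 5, 2 genes were called with ISRIB (Tm7sf2 and Npc1) and 9 after bleomycin, where Sc5d (−0.78) took the place of Fdft1 (−0.35). Depth limits the low genes: Abcg1 could not be tested at 0 to 10 counts per library.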
